A study of Mus musculus with 16 samples.

Results

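Splicing of nuclear pre-mRNA depends on proteins that recognise the ends of introns, and the genes described here encode the main families of them: the U2AF subunits, the SF3A and SF3B subunits of the U2 snRNP, the SR proteins and the hnRNP proteins. They were taken by name, as every gene whose only symbol in the platform annotation begins with U2af, Sf3a, Sf3b, Srsf or Hnrnp, and where a gene had several probe sets, the one brightest on average across the 16 arrays stood for it. The rule gave 40 genes of the 18820 measured: 3 U2af, 9 Sf3a and Sf3b, 10 Srsf and 18 Hnrnp genes. The families are not complete: Hnrnpa1 and Hnrnpm, read only by probe sets with several symbols, are not among the 40, and neither is Srsf7. No expression change entered the rule, though the genes were chosen with earlier results of these data known.

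RNA was taken from oocytes of mice 12 days old on the C57BL/6 background, and each sample pooled 80 oocytes. The 4 genotypes were the double knockout of Hdac1 and Hdac2, the Hdac1 knockout, the Hdac2 knockout and wild type, with 4 biological replicates of each and 16 arrays in all. Knockouts combined conditional loss-of-function alleles of Hdac1, Hdac2 or both with the Zp3-Cre transgene, whose zona pellucida promoter is active in growing oocytes, so the alleles stay intact in other cells and in the oocyte before growth begins. The labels call the controls wild type and do not say whether they carried floxed alleles or Cre. Hdac1 and Hdac2 are closely related histone deacetylases that sit in the same repressor complexes, and the study compared loss of each with loss of both during oocyte growth.

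In the cell, U2AF marks the 3′ end of an intron, and the U2 snRNP with its SF3A and SF3B subcomplexes then settles on the branch point next to it. SR proteins bind exonic enhancers and recruit U1 and U2AF, whereas many hnRNP proteins coat the transcript and repress or redirect splice sites. Growing oocytes are highly active in transcription and store mRNA for the later stages when transcription stops, and storage, polyadenylation and export draw on several of these same proteins. A probe set sums several probes, so the levels below do not separate the spliced isoforms of a gene. Of the 40 genes, 11 had more than 1 probe set, and these did not always change alike.

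Values are log2 probe-set values as deposited. Array medians were 4.54 to 4.59 in the double knockout, 4.47 to 4.49 in the Hdac1 knockout and 4.48 to 4.51 in the Hdac2 knockout, against 4.46 to 4.48 in wild type, so all 4 double knockout arrays lay above the other 12. The correlation between arrays of 1 genotype was 0.995 to 0.998. Of the 40 genes, 38 were at or above the median brightness of the tested probe sets (5.27), and Hnrnpa0 and Srsf12 were below it. Hdac1 ranged from 7.54 to 7.75 in double knockout, 6.40 to 6.83 in Hdac1 knockout and 9.55 to 9.77 in Hdac2 knockout arrays, against 9.23 to 9.35 in wild-type arrays, so the Hdac1 label was borne out by its gene. Hdac1 stood higher in the double knockout than in the Hdac1 knockout, by 1.04 (limma adjusted p = 5.2e-08), and the reason was not tested. The Hdac2 probe set read 10.81 to 10.95, 11.05 to 11.16, 10.95 to 11.01 and 11.02 to 11.18 in double knockout, Hdac1 knockout, Hdac2 knockout and wild-type arrays. The sources used here do not give where its probes lie relative to the deleted part, so it checks nothing, and Hdac2 knockout arrays are named by label alone. All 10 oocyte markers were bright, with summed linear levels of 32870 to 33596 in double knockout, 32492 to 33389 in Hdac1 knockout, 32169 to 33215 in Hdac2 knockout and 33164 to 33781 in wild-type arrays.

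In double knockout oocytes, 14 of the 40 genes passed the test against wild type (limma, one model over all arrays, Benjamini-Hochberg adjusted p under 0.05). The 8 that rose were Srsf9, Sf3b4, Srsf6, U2af1, Srsf2, Sf3b1, Sf3b6 and Hnrnpf, by 0.61 to 0.13 on the log2 scale. The 6 that fell were Hnrnph2, Hnrnpr, U2af1l4, Hnrnph1, Hnrnpa2b1 and Sf3b2, by −0.49 to −0.14. The SR proteins that passed all rose (3 of 10), while 4 of the 5 hnRNP genes that passed fell. With arrays centred, Srsf12 was also called lower, and all 11 hnRNP genes called were lower. When all probe sets of a gene were averaged, Srsf10 was called lower. The share called, 35.0%, was close to the 38.4% of all 18820 genes (17.6% higher, 20.8% lower) and below the 58.5% of the 9225 genes at or above median brightness. The count was thus near the background of all genes.

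The changes were small. The median change of the 40 genes was −0.01, against −0.01 over all probe sets tested and −0.07 over the genes at or above median brightness. With arrays centred it was −0.10, against −0.10 over all probe sets tested. As deposited, the median size of change regardless of direction was 0.11, against 0.15 over all tested and 0.26 over the bright genes. Only Srsf9 and Hnrnph2 passed the 1.4-fold limit that the series' design text names, where 8.32% of all genes passed it as higher and 8.51% as lower. All double knockout arrays lay beyond all wild-type arrays for 15 of the 40 genes, against 36.0% of all genes. For 13 of the 14 called genes this held, and Hnrnpr was the exception, with a two-sided exact permutation p of 0.0857. The calls and this separation rest on the same arrays. Arrays without overlap always give an exact permutation p of 0.0286, the smallest that 70 arrangements of 4 against 4 arrays allow. That p is therefore no second test.

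The balance of higher and lower calls depended on how arrays were scaled, and the array medians differed between the genotypes as given above. With each array centred on its median, 22 genes were called, 6 higher and 16 lower, and with quantile normalization 18 were called, 7 higher and 11 lower. With centring that was 55.0% of the 40 genes, against 45.0% of all genes and 63.5% of the bright ones, and with quantile normalization 45.0%, against 40% and 60.5%. Srsf9, Sf3b4, Srsf6, U2af1, Srsf2 and Sf3b1 stayed higher and all 6 that fell stayed lower under both. Hnrnpf lost its call under both and Sf3b6 when arrays were centred. Leaving out wild-type replicate 4 left 9 calls, of which 2 were lower, and leaving out double knockout replicate 3 left 3 lower calls, while the number of higher calls stayed between 6 and 8 in all 8 fits that left out 1 array of these groups.

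**Figure D1:**
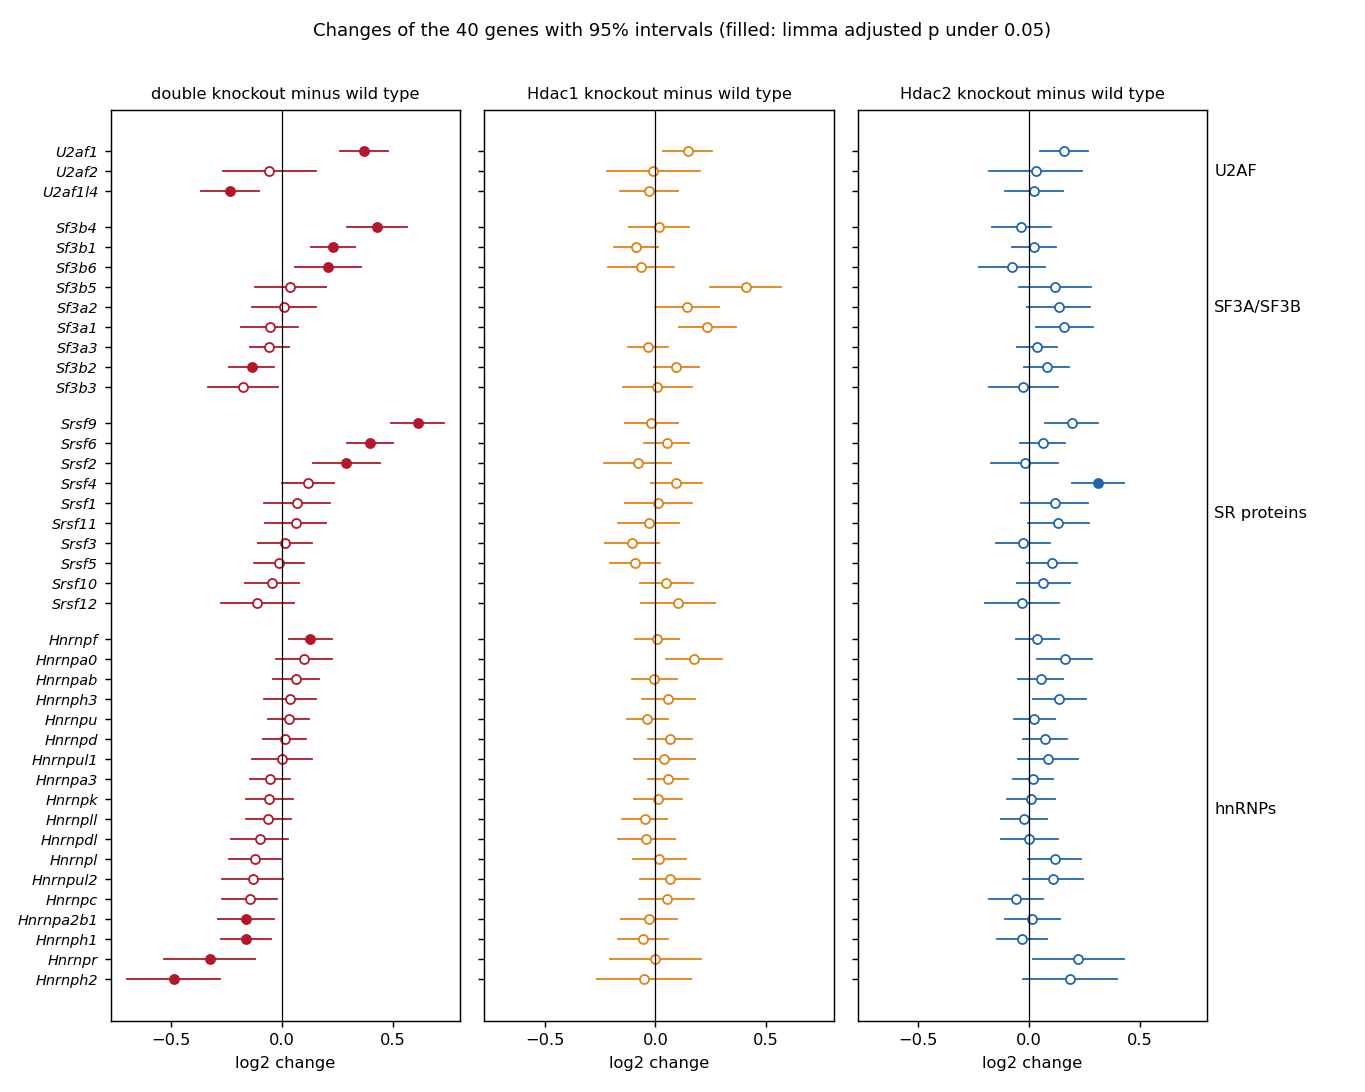
Change of each of the 40 genes against wild type on the log2 scale in the double knockout (left), the Hdac1 knockout (middle) and the Hdac2 knockout (right), with 95% intervals from the fit and genes grouped by family. Filled points passed the test: 14 in the double knockout, 0 in the Hdac1 knockout and 1, Srsf4, in the Hdac2 knockout.

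The DNA just upstream of 4 of the genes is shown, picked by their changes in these same data: Srsf9, the gene that rose most, Hnrnph2, the gene that fell most, and U2af1 and U2af1l4, paralogs that rose and fell. The plan had kept upstream DNA for genes that move together, which these do not, so it is description only. Each line holds the 250 bases before the RefSeq start of the gene, 5′ to 3′ on the gene's strand, from the RefSeq table of build GRCm38.p6. Capitals mark CCAAT, the core of the box that NF-Y binds, and GGGCGG, the core of the GC box, on either strand (the reverse strand reads ATTGG or CCGCCC).
Srsf9, chr5:115326927-115327176, plus strand: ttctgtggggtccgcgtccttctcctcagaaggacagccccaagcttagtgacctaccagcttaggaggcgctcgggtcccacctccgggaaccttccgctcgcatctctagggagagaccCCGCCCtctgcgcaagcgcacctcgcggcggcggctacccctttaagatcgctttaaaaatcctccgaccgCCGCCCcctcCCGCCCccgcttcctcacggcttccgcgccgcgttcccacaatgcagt
Hnrnph2, chrX:134600929-134601178, plus strand: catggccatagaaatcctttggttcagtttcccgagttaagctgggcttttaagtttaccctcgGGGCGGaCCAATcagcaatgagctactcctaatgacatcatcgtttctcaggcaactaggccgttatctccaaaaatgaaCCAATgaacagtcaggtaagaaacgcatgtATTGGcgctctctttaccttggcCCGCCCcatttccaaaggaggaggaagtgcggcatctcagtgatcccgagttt
U2af1, chr17:31658765-31659014, minus strand: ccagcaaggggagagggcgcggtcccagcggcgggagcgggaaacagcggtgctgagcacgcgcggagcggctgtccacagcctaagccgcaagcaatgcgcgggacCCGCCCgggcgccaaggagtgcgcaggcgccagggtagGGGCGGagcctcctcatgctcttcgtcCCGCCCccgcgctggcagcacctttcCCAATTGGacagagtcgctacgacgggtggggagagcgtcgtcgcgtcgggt
U2af1l4, chr7:30563090-30563339, plus strand: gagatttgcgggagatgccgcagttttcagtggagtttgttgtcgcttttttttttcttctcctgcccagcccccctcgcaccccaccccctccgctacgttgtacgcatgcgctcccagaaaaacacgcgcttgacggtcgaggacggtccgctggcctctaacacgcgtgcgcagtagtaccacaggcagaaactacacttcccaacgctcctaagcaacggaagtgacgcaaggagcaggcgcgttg
The window of Srsf9 held 3 GGGCGG matches and no CCAAT, and that of Hnrnph2 held 3 CCAAT and 2 GGGCGG matches. The window of U2af1, for which the table lists 2 starts and the first was used, held 3 GGGCGG matches and 2 CCAAT matches that overlap each other on opposite strands. Neither motif was found in the window of U2af1l4, which says only that these letters are not in it.

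A promoter was in the table for 35 of the 40 genes. GGGCGG was found in 26 of the 35 (74.3%), against 46.4% of the 14749 tested genes with a window and 32.9% of all 27025 windows. CCAAT was found in 17 (48.6%), against 35.7% and 34.5%. The same search on both strands found CACGTG in 5.71% of the 35 (7.09% of tested genes' and 6.05% of all windows), TATAAA in 8.57% (11.4% and 13%) and TGACGTCA in 0 (2.17% and 1.62%). Median GC content was 64.0% over the 35 windows, 56.8% over tested genes and 52.0% over all. Among the 7 genes that rose and have a window, GGGCGG was in 6 and CCAAT in 2, and among the 6 that fell GGGCGG was in 3 and CCAAT in 5. These matches describe the letters and were not tested against the changes. No share was taken over windows of genes at or above median brightness, where 38 of the 40 genes lie. Whether the higher shares belong to splicing genes or to bright genes was therefore not tested.

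U2AF is a dimer, in which the large subunit binds the pyrimidine tract and the small subunit reads the AG at the 3′ splice site. The gene of the small subunit, U2af1, read 9.37, 9.59, 9.51 and 9.54 in the 4 double knockout arrays, against 9.14, 9.15, 9.13 and 9.11 in the wild-type arrays. All double knockout arrays were higher than all wild-type arrays, and the difference was 0.37 ± 0.05 (log2, SE, adjusted p = 2.2e-05), or 129% of wild type. In the single knockouts it read 9.30, 9.31, 9.29 and 9.20 without Hdac1 and 9.31, 9.32, 9.29 and 9.24 without Hdac2. U2af1 was the only one of the 40 genes whose arrays all lay on one side of wild type in every knockout, although the single-knockout differences of 0.14 and 0.16 did not pass (adjusted p = 0.43 and 0.088). A second probe set of U2af1 also rose in the double knockout, by 0.34.

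U2af1l4 encodes a paralog of the small subunit and moved the other way. It read 10.58, 10.42, 10.55 and 10.36 in double knockout arrays, against 10.74, 10.72, 10.76 and 10.64 in wild-type arrays, with no overlap between the groups. The fall was 0.24 on the log2 scale (change −0.24 ± 0.06, SE, adjusted p = 0.0057), or 84.9% of wild type. The single knockouts were at 10.68 ± 0.10 without Hdac1 and 10.74 ± 0.04 without Hdac2, beside 10.71 ± 0.05 in wild type (SD, n = 4 each). U2af2, the large subunit, did not pass, at −0.06 with a 95% interval of −0.27 to 0.15. In pooled oocytes, fewer oocytes holding a transcript and less of it in each oocyte cannot be told apart, and each value is relative to the rest of its array.

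SF3B clamps the branch point helix of the U2 snRNP, with Sf3b1 as its scaffold, Sf3b4 an RNA-binding subunit that contacts the intron and Sf3b6 the subunit next to the branch adenosine. Sf3b4 read 8.77, 8.90, 9.05 and 8.93 in double knockout arrays, against 8.45, 8.49, 8.52 and 8.48 in wild-type arrays. It rose by 0.43 ± 0.06 (SE, adjusted p = 4.4e-05), to 134% of wild type, and the groups did not overlap. Its levels in the Hdac1 knockout (8.50 ± 0.06) and the Hdac2 knockout (8.45 ± 0.10) differed from wild type (8.49 ± 0.03, SD, n = 4 each) by less than 0.05. The dimmer probe set of Sf3b4 changed by 0.28 without passing (adjusted p = 0.093).

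Sf3b1 read 11.23, 11.25, 11.22 and 11.23 in double knockout arrays, against 10.96, 10.99, 11.03 and 11.02 in wild-type arrays. The double knockout arrays were almost identical to one another and all higher, and the rise was 0.23 ± 0.05 (SE, adjusted p = 0.00075), to 117% of wild type. Its Hdac1 knockout arrays, at 10.87, 10.90, 10.94 and 10.95, all lay below wild type, by 0.09 on average, which did not pass (adjusted p = 0.64). Sf3b6 rose in the double knockout by 0.21 (7.97 ± 0.05, against 7.76 ± 0.08 in wild type, SD, n = 4 each, adjusted p = 0.027). The Sf3b6 call was lost in 4 of the 8 fits with 1 array left out, those without double knockout replicates 2 or 4 or wild-type replicates 2 or 4, at adjusted p of 0.053 to 0.093.

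Sf3b2, another SF3B subunit, fell to 8.59 ± 0.04 in double knockout oocytes, against 8.72 ± 0.05 in wild-type oocytes (SD, n = 4 each), a change of −0.14 ± 0.05 (SE, adjusted p = 0.032). That call was lost in 5 of the 8 fits, without double knockout replicates 1, 2 or 3 or wild-type replicates 1 or 4 (adjusted p = 0.050 to 0.11), and when only those 2 genotypes were fitted. Within one complex Sf3b1, Sf3b4 and Sf3b6 were higher and Sf3b2 lower. The SF3A subunits Sf3a1, Sf3a2 and Sf3a3 and the SF3B subunits Sf3b3 and Sf3b5 did not pass, with changes from −0.18 to 0.04 and 95% intervals reaching from −0.33 to 0.20.

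SR proteins carry RNA recognition motifs and a domain rich in arginine and serine, and several of them shuttle with mRNA to the cytoplasm. Srsf9 changed most of the 40 genes against wild type. It read 9.51, 9.31, 9.40 and 9.33 in double knockout arrays, against 8.75, 8.86, 8.70 and 8.79 in wild-type arrays, a rise of 0.61 ± 0.06 (SE, adjusted p = 2.8e-07), to 153% of wild type. Hdac1 knockout arrays, at 8.71, 8.69, 8.82 and 8.81, overlapped wild type. Hdac2 knockout arrays, at 8.98, 8.94, 8.97 and 8.99, all lay between wild type and the double knockout, at 0.19 over wild type, which missed the threshold (adjusted p = 0.059).

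Srsf6 read 7.86, 7.90, 7.97 and 7.93 in double knockout arrays, against 7.47, 7.52, 7.52 and 7.57 in wild-type arrays, a rise of 0.40 ± 0.05 (SE, adjusted p = 5.3e-06). The groups did not overlap, and the single knockouts were at 7.57 ± 0.05 without Hdac1 and 7.58 ± 0.05 without Hdac2, beside 7.52 ± 0.04 in wild type (SD, n = 4 each). Srsf2, which also acts in transcription elongation, read 10.26, 10.31, 10.45 and 10.45 in double knockout arrays, against 10.13, 10.15, 9.91 and 10.12 in wild-type arrays. It rose by 0.29 ± 0.07 (SE, adjusted p = 0.0036), and wild-type replicate 3 lay well below the other wild-type arrays. The other SR genes, Srsf1, Srsf3, Srsf4, Srsf5, Srsf10, Srsf11 and Srsf12, did not pass, with changes of −0.11 to 0.12 and 95% intervals within −0.28 to 0.23. Srsf10 had a second, dimmer probe set that fell by 0.29 (adjusted p = 0.018), whereas the one used here changed by −0.05.

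**Figure D2:**
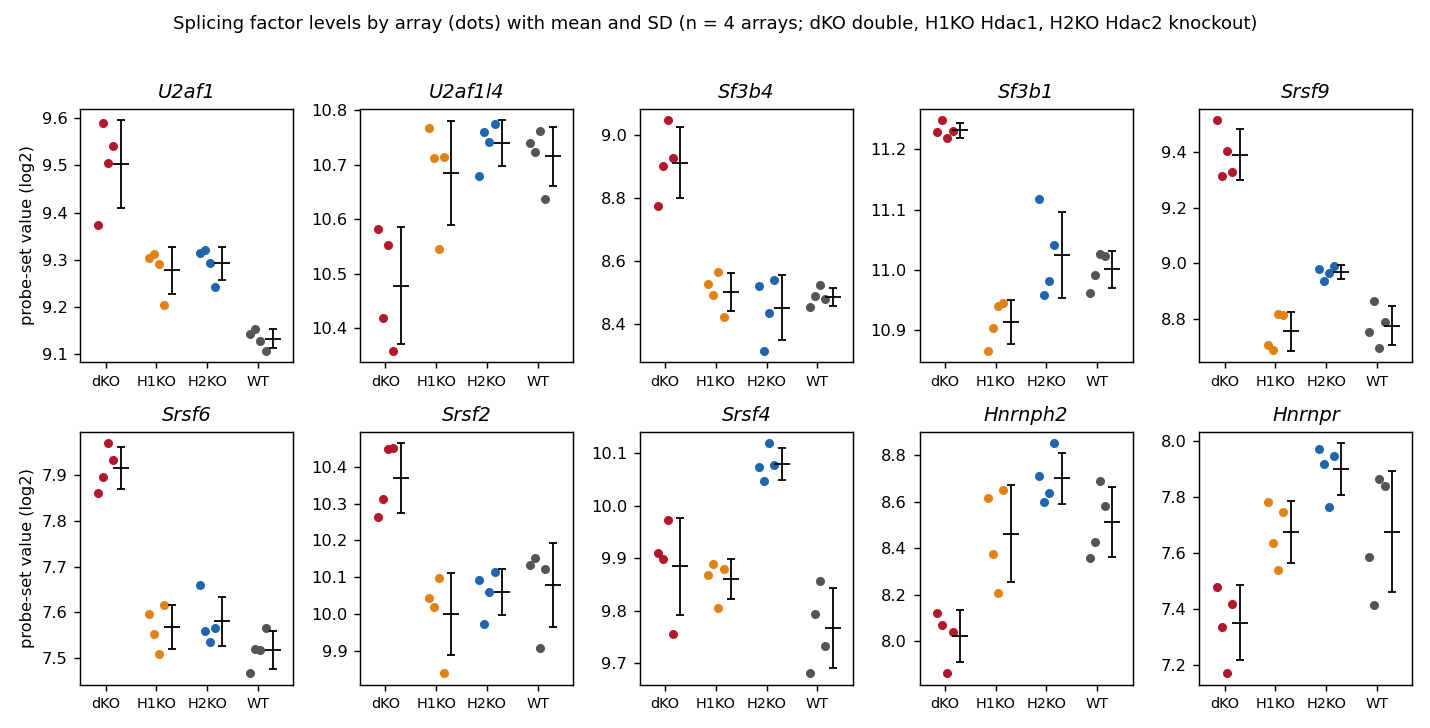
Log2 probe-set values by array for 10 genes in the double knockout (dKO), the Hdac1 knockout (H1KO), the Hdac2 knockout (H2KO) and wild type (WT), with dots for arrays and bars for the mean and SD of 4 arrays. Each panel has its own scale that does not start at 0; Srsf9 and Sf3b4 stand highest in the double knockout, Hnrnph2 lowest, and Srsf4 highest in the Hdac2 knockout.

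The hnRNP F and H proteins bind runs of guanine, and the genes of the group differed in direction. Hnrnph2 read 8.12, 8.07, 7.86 and 8.04 in double knockout arrays, against 8.36, 8.43, 8.69 and 8.58 in wild-type arrays. It fell by 0.49 (change −0.49 ± 0.10, SE, adjusted p = 0.00081), to 71.2% of wild type, and a second probe set changed by −0.55, also called. The single knockouts, at 8.61, 8.37, 8.21 and 8.65 without Hdac1 and 8.71, 8.60, 8.64 and 8.85 without Hdac2, overlapped wild type. Hnrnph1, its close paralog, averaged 11.03 ± 0.06 in double knockout and 11.19 ± 0.04 in wild-type oocytes (SD, n = 4 each), a change of −0.16 ± 0.05 (SE, adjusted p = 0.022). The Hnrnph1 call was lost without double knockout replicates 1, 3 or 4 or wild-type replicate 4 (adjusted p = 0.051 to 0.066).

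Hnrnpf rose slightly, to 11.51 ± 0.05 in double knockout oocytes, against 11.38 ± 0.04 in wild-type oocytes (SD, n = 4 each), a change of 0.13 ± 0.05 (SE, adjusted p = 0.037). Its call was lost in 6 of the 8 fits, those without double knockout replicates 1, 2 or 4 or wild-type replicates 1, 2 or 3 (adjusted p = 0.052 to 0.10). It was also lost when only those 2 genotypes were fitted, with arrays centred and with quantile normalization. The other 4 probe sets of Hnrnpf changed by 0.10 to 0.18, 2 of them called and 2 not. Hnrnph3 did not pass. Where a gene has near-identical copies in the genome, a probe set may read them too, which cannot be told apart here.

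Hnrnpr, which binds mRNA in the nucleus and the cytoplasm, read 7.48, 7.34, 7.17 and 7.42 in double knockout arrays, against 7.58, 7.42, 7.87 and 7.84 in wild-type arrays. The groups overlapped in 1 wild-type array, and the change of −0.33 ± 0.10 (SE, adjusted p = 0.013) missed the threshold without double knockout replicate 3 or wild-type replicates 3 or 4 (adjusted p = 0.051 to 0.053). Hnrnpa2b1, a reader of mRNA sorting signals and of exonic silencers, averaged 9.85 ± 0.09 in double knockout and 10.01 ± 0.04 in wild-type oocytes (SD, n = 4 each), a change of −0.16 ± 0.06 (SE, adjusted p = 0.040). Its call was lost without double knockout replicates 2 or 4 or wild-type replicates 1, 3 or 4 (adjusted p = 0.062 to 0.14), when all probe sets were tested, and when only those 2 genotypes were fitted.

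The 13 hnRNP genes that did not pass were Hnrnpa0, Hnrnpa3, Hnrnpab, Hnrnpc, Hnrnpd, Hnrnpdl, Hnrnph3, Hnrnpk, Hnrnpl, Hnrnpll, Hnrnpu, Hnrnpul1 and Hnrnpul2. Their changes ran from −0.15 to 0.10, and their 95% intervals lay within −0.27 to 0.22. All 9 probe sets of Hnrnpa3 changed by −0.09 to −0.02. Hnrnpc and Hnrnpl were lower in every double knockout array than in any wild-type array, by 0.15 and 0.12 on average, and did not pass (adjusted p = 0.059 and 0.10). A second probe set of Hnrnpc changed by 0.01.

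With Hdac1 alone deleted, none of the 40 genes passed by limma (0.0638% of all genes did, and 0.119% of those at or above median brightness), and 5 had an unadjusted p under 0.05. The changes ran from −0.11 to 0.41, with a median of 0.01. The widest was that of Sf3b5, a small SF3B subunit, which read 9.94, 10.13, 10.14 and 10.04 in Hdac1 knockout arrays, against 9.74, 9.70, 9.41 and 9.77 in wild-type arrays. No array overlapped, at 0.41 ± 0.08 (SE), and the adjusted p was 0.064. Sf3b5 passed when dim probe sets were left out before the fit and when the spread was modelled with an intensity trend, and was then the one of the 40 genes called. The others with an unadjusted p under 0.05 were Sf3a1 (0.23), Hnrnpa0 (0.17), U2af1 (0.14) and Sf3a2 (0.14).

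With Hdac2 alone deleted, 1 of the 40 genes passed, 2.50%, against 5.84% of all genes (2.88% higher, 2.96% lower) and 9.72% of those at or above median brightness. This was Srsf4, an SR protein that read 10.07, 10.05, 10.12 and 10.08 in Hdac2 knockout arrays, against 9.68, 9.79, 9.86 and 9.73 in wild-type arrays. All Hdac2 knockout arrays were higher, by 0.31 ± 0.05 (SE, adjusted p = 0.0030), or 124% of wild type. Its call held in each of the 8 fits that left out 1 array of these genotypes. In the double knockout Srsf4 read 9.91, 9.90, 9.97 and 9.76, overlapping wild type (change 0.12, adjusted p = 0.11), and in the Hdac1 knockout 9.87, 9.89, 9.81 and 9.88 (change 0.09, adjusted p = 0.67). Srsf4 lies on chromosome 4, 31 protein-coding genes from Hdac1 in the RefSeq order, and the nearest of the 40 genes to Hdac2 on chromosome 10 was Sf3b5, 126 genes away.

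The other changes in the Hdac2 knockout ran from −0.08 to 0.22. The median over the 40 genes was 0.06, against −0.01 over all probe sets tested. It was 0.03 with arrays centred, against −0.04, and 0.06 with quantile normalization, against −0.02. The median level of the 40 genes itself varied between replicate arrays with an SD of 0.05. Srsf9 (0.19) and U2af1 (0.16) passed when dim probe sets were left out, which gave 3 calls, and Srsf9 passed with an intensity trend, which gave 2. Hnrnpr (0.22, adjusted p = 0.22), Sf3a1 (0.16), Hnrnpa0 (0.16) and Hnrnph3 (0.14) had an unadjusted p under 0.05 and did not pass. Hnrnpr, which fell in the double knockout, thus read 7.97, 7.92, 7.76 and 7.95 in Hdac2 knockout arrays, all above the middle of the wild-type range.

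**Figure D3:**
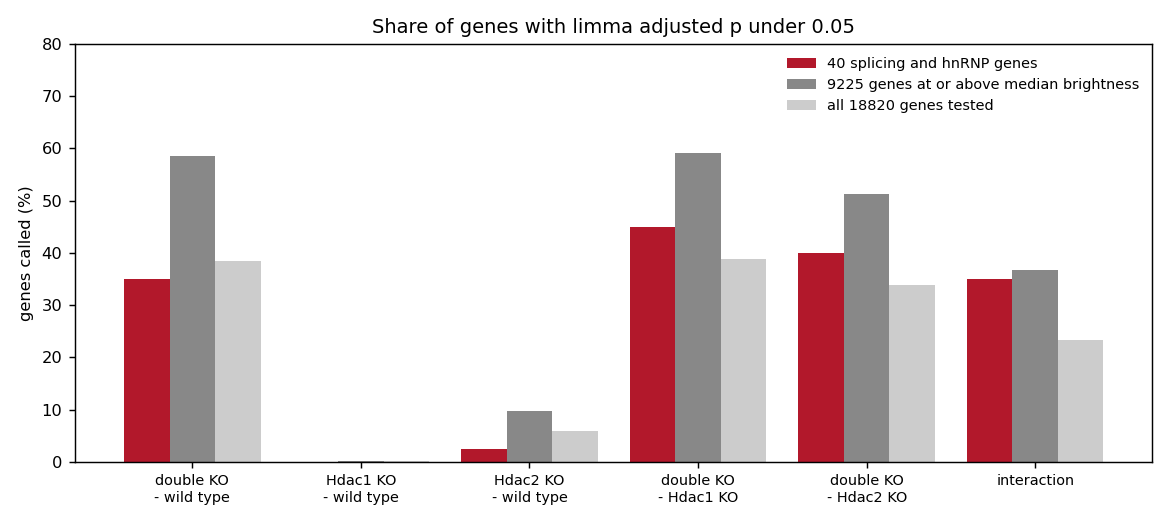
Share of genes called in each comparison for the 40 splicing and hnRNP genes, for the 9225 genes at or above median brightness and for all 18820 genes, in percent. The 40 genes stand at 35.0% in the double knockout against wild type, below the bright genes (58.5%) and near all genes (38.4%), and at 0 in the Hdac1 knockout.

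The double knockout was also set against each single knockout, comparisons that share its 4 arrays with the one against wild type. Against the Hdac1 knockout 18 genes passed, 8 higher and 10 lower, beside 38.9% of all genes (17.8% higher, 21.1% lower) and 59.2% of those at or above median brightness. With arrays centred the split was 7 higher and 18 lower, and with quantile normalization 7 and 15, where 44.4% and 40.7% of all genes and 63.5% and 61.5% of the bright ones were called. The 8 higher were the same genes that rose against wild type. The lower ones included Hnrnph2 (−0.44), Sf3b5 (−0.37), Hnrnpr (−0.32) and Sf3a1 (−0.29). Against the Hdac2 knockout 16 genes passed, 7 higher and 9 lower, beside 33.9% of all genes (16.1% higher, 17.8% lower) and 51.3% of the brighter ones. Centred arrays gave 7 higher and 18 lower, and quantile normalization 7 and 13, beside 36.6% and 34.8% of all genes and 55.3% and 53.8% of the bright ones. Sf3b4 (0.46) and Srsf9 (0.42) rose most and Hnrnph2 (−0.68) and Hnrnpr (−0.55) fell most. Srsf4 was lower in the double knockout than in the Hdac2 knockout, by 0.19 (adjusted p = 0.011).

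Whether loss of both genes gave more or less than both single losses added together was tested by the interaction term, double knockout minus Hdac1 knockout minus Hdac2 knockout plus wild type. It passed for 14 of the 40 genes, 35.0%, against 23.4% of all genes (11.2% higher, 12.2% lower) and 36.7% of those at or above median brightness. For 6 genes the double knockout was higher than the sum: Sf3b4 (0.45), Srsf9 (0.44), Srsf2 (0.39), Sf3b6 (0.35), Sf3b1 (0.29) and Srsf6 (0.28). For 8 genes it was lower: Hnrnph2 (−0.63), Hnrnpr (−0.55), Sf3b5 (−0.49), Sf3a1 (−0.45), Sf3b2 (−0.31), Hnrnpul2 (−0.31), Srsf4 (−0.29) and Hnrnpl (−0.26). With arrays centred the split was 6 and 11, and with quantile normalization 6 and 13, where 24.1% and 24.5% of all genes and 38.0% and 39.0% of the bright ones passed.

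The terms arose in different ways. For Hnrnph2 the double knockout changed by −0.49 where the single changes summed to 0.14, and for Sf3b4 by 0.43 where they summed to −0.02. For Sf3b5 and Sf3a1 the double knockout changed by 0.04 and −0.05 where the sums were 0.52 and 0.39, though no single-knockout change of either gene passed. The Srsf9 sum was 0.17, made of 0.19 in the Hdac2 knockout and −0.02 in the Hdac1 knockout, against 0.61 measured. U2af1 did not pass: its double knockout change of 0.37 and the sum of 0.30 differed by 0.07, with a 95% interval of −0.09 to 0.22. The Hnrnpl call was lost without double knockout replicate 4, Hdac1 knockout replicate 4 or Hdac2 knockout replicate 3 (adjusted p = 0.055 to 0.062).

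**Figure D4:**
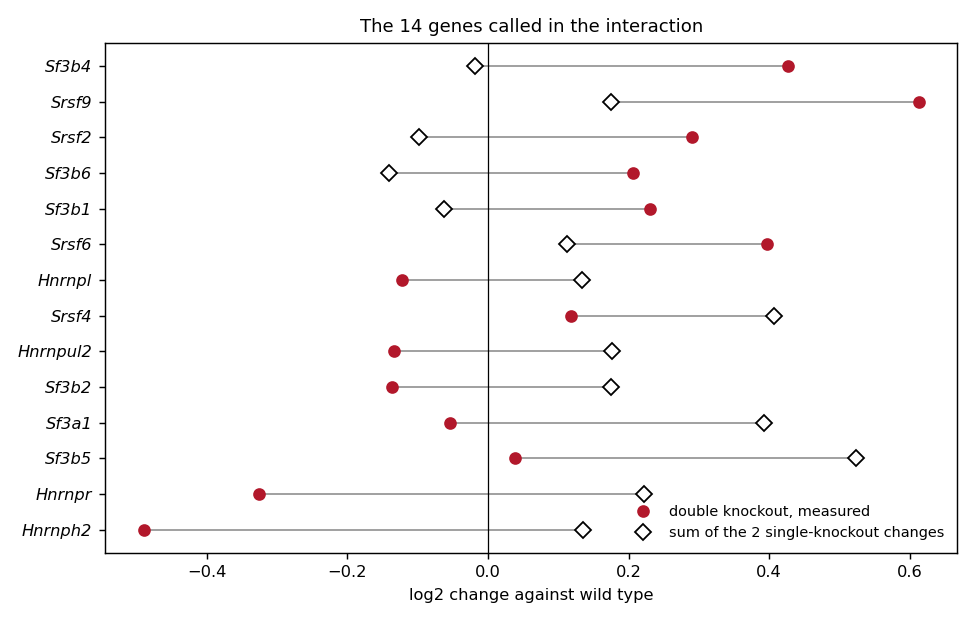
The 14 genes whose interaction term passed, with the measured double knockout change (filled circles) and the sum of the 2 single-knockout changes (open diamonds), both against wild type on the log2 scale. Lines join the 2 values of a gene; Sf3b4 lies 0.45 above its sum and Hnrnph2 0.63 below it.

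Other genes of the splicing machinery were taken from 10 lists of 175 genes, of which 158 were measured. In the double knockout 30 were higher, 37 lower and 91 did not pass. The 42.4% called stood beside 38.4% of all genes (17.6% higher, 20.8% lower) and 58.5% of the bright ones, shares against which the counts of each list below are to be read. The 158 genes had a median of −0.03, against −0.01 over all probe sets tested. Centred arrays gave 22 higher and 64 lower, and quantile normalization 27 and 49. In the Hdac1 knockout none passed by limma. In the Hdac2 knockout 4.43% were called, beside 5.84% of all genes and 9.72% of the bright ones. The calls were 4 higher and 3 lower (2 and 3 with arrays centred), named here partly after their values were seen. Srpk3, Ptbp1, Ybx1 and Fubp1 were the higher ones, by 0.55, 0.31, 0.18 and 0.18, and Khdrbs1, Lsm8 and Mbnl1 the lower ones, by −0.51, −0.44 and −0.28.

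Of the 6 U1 proteins 1 rose, Snrpc (0.39, adjusted p = 0.00052), and of the 7 Sm proteins 1 rose, Snrpd2 (0.23, adjusted p = 0.00097), with medians of 0.05 and −0.00 over the 2 lists. Of the 16 other U2 proteins, median −0.04, none rose and 2 fell, the helicases Ddx46 (−0.49, adjusted p = 0.00017) and Dhx15 (−0.20, adjusted p = 0.019). The Dhx15 call was lost without double knockout replicate 2 or wild-type replicates 3 or 4 (adjusted p = 0.058 to 0.068) and when only those 2 genotypes were fitted. Of the 16 tri-snRNP proteins, which carry U4, U6 and U5 into the spliceosome, 2 rose, Prpf4 (0.33) and Ppih (0.19), and 6 fell, among them the helicase Ddx23 (−0.40) and Snrnp27 (−0.37), with a median of −0.11. Ppih did not pass with arrays centred (adjusted p = 0.15). Of the 8 LSm proteins, Lsm7 (0.36) and Lsm2 (0.31) rose and Lsm8 fell (−0.76, adjusted p = 3.5e-07), with a median of −0.02.

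Larger changes were found among catalytic-step factors and regulators. Of the 20 genes of the Prp19 complex and catalytic steps 5 rose and 5 fell, with a median of −0.01. Cdc5l, a core Prp19-complex subunit, was at 9.63 to 10.15 in double knockout arrays, against 8.80 to 9.04 in wild-type arrays, a rise of 0.998 ± 0.12 (SE, adjusted p = 4.1e-06). Aqr, an intron-binding helicase, was at 9.91 to 10.13 in double knockout arrays, against 9.12 to 9.28 in wild-type arrays, a rise of 0.86 ± 0.06 (SE, adjusted p = 8.6e-09). Cdc40 and Cwc27 fell, by −0.54 and −0.48. Both rises were larger than any among the 40 genes.

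Of the 22 SR-protein kinases and SR-related genes 2 rose and 8 fell, with a median of −0.03. Srpk3, which phosphorylates SR proteins, was at 5.77 to 6.09 in double knockout arrays, against 4.24 to 4.47 in wild-type arrays, a rise of 1.51 ± 0.13 (SE, adjusted p = 9.2e-08) in a probe set below median brightness. Tra2a, an SR-like splicing activator, rose (0.29, adjusted p = 0.011, not with arrays centred, 0.063), and Rsrc1 (−0.51) and Srek1 (−0.48) fell. Of the 42 other alternative-splicing regulators 11 rose and 10 fell, with a median of −0.04. Mbnl3 (0.999) and Mbnl2 (0.90), which bind CUG repeats, rose in dim probe sets, and Tardbp, a repressor of cryptic exons, fell by −0.60. Nova1, known from neurons, read 5.96 to 7.16 in double knockout arrays, against 7.51 to 7.81 in wild-type arrays (−1.15 ± 0.24, SE, adjusted p = 0.00092), with the widest spread of these genes.

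Of the 9 minor-spliceosome proteins 3 rose and 3 fell, with a median of −0.05: Snrnp25 (0.69) and Ybx1 (0.32) rose, and Rnpc3 (−0.54) and Snrnp35 (−0.33) fell. The Snrnp35 call was lost without double knockout replicates 1 or 4 or wild-type replicates 1 or 4 (adjusted p = 0.084 to 0.13), when all probe sets were tested and when only those 2 genotypes were fitted. Of the 12 exon junction and nonsense-mediated decay genes 3 rose and 2 fell, with a median of −0.03. Sap18 (0.58) and Upf2 (0.54) rose, and Smg9 (−0.51) and the decay helicase Upf1 (−0.43) fell.

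**Figure D5:**
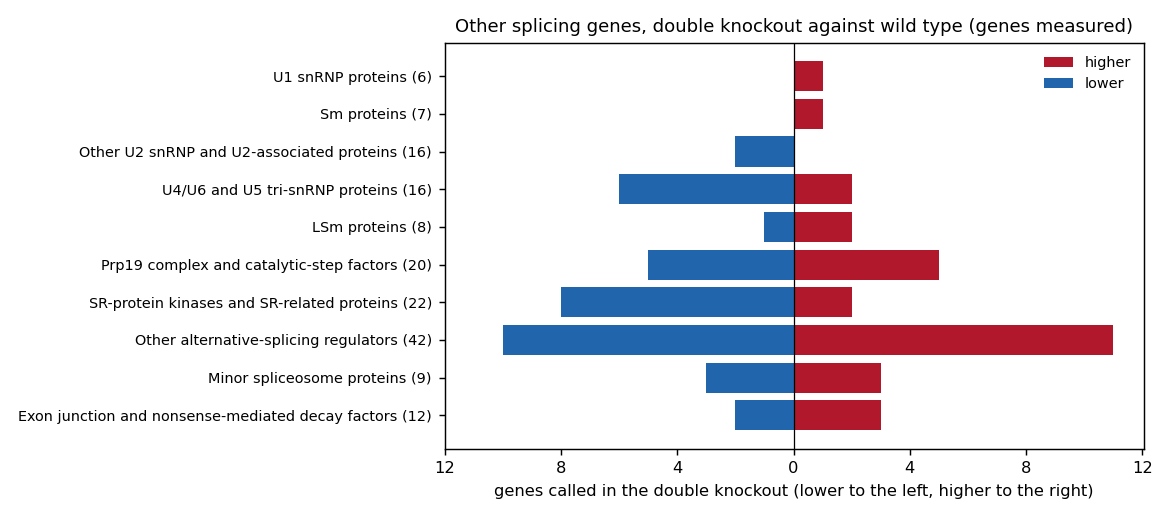
Number of genes in 10 other splicing lists that were called higher (right of 0) or lower (left of 0) in the double knockout against wild type, with the number measured in brackets. Alternative-splicing regulators split 11 to 10, and SR-related genes 2 to 8.

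Markers of other ovarian cells were read on the same arrays. Of 9 granulosa markers 8 were dim, and their summed linear level was 571 to 662 in double knockout, 994 to 1130 in Hdac1 knockout and 908 to 999 in Hdac2 knockout arrays, against 1015 to 1112 in wild-type arrays. Most of the gap came from Nr5a2, which fell by −1.07 in the double knockout. Without it the sums were 184 to 215, 172 to 186 and 161 to 181 in those knockouts, against 164 to 189 in wild type. In the double knockout 2 granulosa markers rose, Inha (0.59) and Wt1 (0.56), 2 fell, Nr5a2 and Kitl (−0.37), and 5 did not pass. The Inha call was lost without double knockout replicates 1 or 3 or wild-type replicates 2 or 3 (adjusted p = 0.053 to 0.071) and when only those 2 genotypes were fitted.

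All 9 theca and stroma markers were dim, with sums of 131 to 140 in double knockout, 127 to 138 in Hdac1 knockout and 124 to 133 in Hdac2 knockout arrays, against 124 to 131 in wild-type arrays. One of them rose in the double knockout, Acta2 (0.31), a call lost without double knockout replicate 1 or wild-type replicate 2 (adjusted p = 0.052 to 0.054) and with arrays centred. Of 8 blood, immune and endothelial markers 6 were dim, with sums of 258 to 313 in double knockout, 485 to 560 in Hdac1 knockout and 463 to 544 in Hdac2 knockout arrays, against 466 to 527 in wild-type arrays. Without Pecam1, which fell by −1.37, they were 153 to 160, 148 to 153 and 150 to 168 in those knockouts, against 143 to 161 in wild type. In this list Alas2 fell as well (−0.28) and Cd68 rose (0.38), a call lost without double knockout replicates 3 or 4 or wild-type replicates 1 or 3 (adjusted p = 0.061 to 0.099) and with arrays centred. Of the 10 oocyte markers Figla (−0.56) and Ddx4 (−0.32) fell in the double knockout and 8 did not pass. The part of other cells in the values of the splicing genes was not tested.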

How the data were processed

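Transcripts of pooled oocytes were measured on Affymetrix Mouse 1.1 ST arrays. The values in the deposited table, 1 column per array, are log2 probe-set values that the authors made with MAS5, per the submitters' processing notes and the series' design text, which also names GeneSpring, SAM and EASE. The log base is not stated and was inferred to be 2 from the range of the values. Of 35556 probe sets, 21218 have 1 gene symbol in the platform annotation and were tested, 1881 have several and 12457 none. No further normalization was applied.

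In R 4.3.3 with limma 3.58.1, 1 model with 4 genotype means was fitted to all 16 arrays (12 residual degrees of freedom). Benjamini-Hochberg adjustment ran over the 21218 probe sets. A gene was called at an adjusted p under 0.05, and "adjusted p" in the text is this value. A probe set is called bright at or above the median mean level of those tested, and otherwise dim. The fit was checked on simulated data. The number of arrays limits the precision. For single genes an exact permutation test over arrays was also run.

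The members and lists were chosen with earlier results of these data known. All members called against wild type or in the interaction are named, and some of those called against a single knockout. From each other splicing list, up to 2 called genes changed most in each direction in the double knockout are named. Replicate numbers did not pair the arrays: the correlation of deviations of same-numbered arrays ran from −0.148 to 0.0866 over 24 pairs. Alternatives were other scalings, probe-set filters, fits and single arrays left out. Probe sets with several symbols were left out, so genes read only by those are not members. The authors' own calls were not used here.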

Additional observations from a re-analysis of the deposited data

Results flagged for a closer look

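In 4 of the 160 sets of 4 arrays (40 genes in 4 genotypes), 1 array lay far from the other arrays of its genotype by Dixon's criterion, where chance gives about 1 in 20. Hnrnph1 read 11.12 in double knockout replicate 2, with the nearest other array at 11.002. Sf3a2 read 9.17 in Hdac1 knockout replicate 1, with the nearest at 9.31. Hnrnpc read 10.999 in wild-type replicate 3, with the nearest at 10.81. Srsf2 read 9.91 in wild-type replicate 3, with the nearest at 10.12.

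For 14 genes the effect of deleting one deacetylase differed with the state of the other, by the interaction term of the limma fit (log2 values, n = 4 arrays per genotype). These are 35.0% of the 40 genes, beside 23.4% of all genes and 36.7% of those at or above median brightness. It was positive for Sf3b4 (0.45, adjusted p = 0.0018), Srsf9 (0.44, 0.00082), Srsf2 (0.39, 0.010), Sf3b6 (0.35, 0.017), Sf3b1 (0.29, 0.0039) and Srsf6 (0.28, 0.0061). It was negative for Hnrnph2 (−0.63, 0.0040), Hnrnpr (−0.55, 0.0081), Sf3b5 (−0.49, 0.0036), Sf3a1 (−0.45, 0.0012), Sf3b2 (−0.31, 0.0031), Hnrnpul2 (−0.31, 0.020), Srsf4 (−0.29, 0.013) and Hnrnpl (−0.26, 0.028).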

How the results depend on the processing

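No called change of a named gene changed sign under the alternatives run, but the balance of calls in the double knockout against wild type turned, from 8 higher and 6 lower to 6 and 16 with arrays centred and 7 and 11 with quantile normalization. Median changes near 0 also changed sign, in the Hdac1 knockout to −0.0041 with arrays centred and in the double knockout to 0.0048 without double knockout replicate 1. Of the 14 genes called in the double knockout against wild type, 12 kept the call with arrays centred on their median and 13 with quantile normalization, which move the median over all tested probe sets in that comparison by −0.0912 and −0.0325. Centring gave 22 calls in that comparison and 25 against the Hdac2 knockout. It moved the median change of the 40 genes to −0.10 against wild type, −0.13 against the Hdac1 knockout and −0.14 against the Hdac2 knockout, and quantile normalization to −0.0604 against wild type and −0.15 for the interaction. Over all probe sets tested, the medians were −0.10, −0.09 and −0.06 with centring and −0.04 and −0.02 with quantile normalization, in the same order. Leaving out dim probe sets gave 1 call in the Hdac1 and 3 in the Hdac2 knockout, and an intensity trend with robust fitting 1 and 2. Requiring a 1.4-fold change left 2 calls in the double knockout, 0 in the Hdac2 knockout, 1 against the Hdac1 knockout, 2 against the Hdac2 knockout and 3 for the interaction. With 1 array left out, calls in the double knockout against wild type numbered 9 to 12, with 9 without wild-type replicate 4. They numbered 0 in every such fit of the Hdac1 knockout and 1 of the Hdac2 knockout, 14 to 19 and 15 to 17 against those knockouts, and 13 to 16 for the interaction. With the replicate number as a replicate block, counts were 12, 0 and 1 in the double, Hdac1 and Hdac2 knockouts against wild type, 16 and 16 for the double against the Hdac1 and Hdac2 knockouts, and 15 for the interaction. The calls of Hnrnpf and Hnrnpa2b1 in the double knockout against wild type, of Hnrnpf and Hnrnpa3 against the Hdac1 knockout and of Hnrnpl for the interaction were lost under it. Arrays of 1 number do not deviate together (2 of 16 arrays correlated best with one of their own number), so the block is a hint only. For lost calls the cause was not tested. With 4 arrays per genotype, the smallest change called in the double knockout was 0.13 on the log2 scale.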
